A study of Mus musculus with 67 samples.

Results

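The early growth response factors Egr1, Egr2 and Egr3 and the corepressors Nab1 and Nab2 that bind them were followed at the level of mRNA in mouse B and T lymphocytes stimulated through the antigen receptor with or without an agonist antibody to the inhibitory receptor Btla. These 5 genes, of 35539 in the quantification tables, were chosen by their measured levels in these same libraries, above all the difference between anti-Btla and control Ig beads without IFNb in B cells, so that difference is given below as a description without a test. Reads assigned to the transcripts of each gene were summed and scaled to the library total (CPM). All 5 genes passed the filter on low counts in each of the 24 tested comparisons.

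C57BL/6 mice were either immunized with a MOG peptide, the immunization labelled EAE (experimental autoimmune encephalomyelitis), or left without immunization (naive). B cells and T cells, the T cells labelled CD4+, were purified by negative selection from spleen and lymph nodes. For 18 h they met aldehyde/sulfate latex beads that carried a primary stimulus, anti-IgM/IgG for B cells and anti-CD3 for T cells. The same beads also bore anti-Btla (clone 6A6) or control Ig, and either condition was run with and without soluble IFNb, so that each cell type of each mouse group had the arms anti-Btla + IFNb, anti-Btla, control Ig + IFNb, control Ig and unstimulated. There were 3 libraries in each of the 20 groups. The age of these mice is not in the labels, nor is it stated whether the unstimulated cells were kept in culture or whether libraries with the same replicate number came from the same animals, and p-values therefore measure the spread between these libraries, which may be technical.

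Early growth response factors are zinc finger transcription factors that are made within minutes to hours of many stimuli, antigen receptor ligation among them, when MAP kinases act on serum response factor and its partners at CArG boxes, the DNA elements that serum response factor binds. They bind GC-rich elements, and Egr2 and Egr3 are known in T cells for limiting activation and for promoting anergy, while Egr1 is linked to proliferation and differentiation of activated lymphocytes. Nab1 and Nab2 carry no DNA-binding domain of their own; they dock onto Egr1, Egr2 and Egr3 and repress, Nab2 through the chromatin remodeller Chd4, and Nab2 is itself known as a gene that Egr factors induce, which closes a negative feedback loop.

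The CArG box, through which serum response factor acts on Egr genes, and the GC-rich element that Egr proteins bind were searched for. A sequence with each is shown because the values below concern stimulated Egr genes and their corepressors. Whether these sequences take part in the loop was not tested. The RefSeq promoter table, in build GRCm38.p6, held a window for Egr2, Nab1 and Nab2. The 250 bases before the Egr2 start lie at chr10:67537619-67537868 on the plus strand, outside annotated exons, and hold a CArG box, given in capitals, at positions -72 to -63 from that start.
Egr2: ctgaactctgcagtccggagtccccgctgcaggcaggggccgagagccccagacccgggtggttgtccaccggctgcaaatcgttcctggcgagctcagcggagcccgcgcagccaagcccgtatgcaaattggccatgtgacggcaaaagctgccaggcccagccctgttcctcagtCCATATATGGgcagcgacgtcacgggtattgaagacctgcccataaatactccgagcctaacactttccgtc
In the window before the RefSeq start of Nab1, on the minus strand of chromosome 1, the Egr element GCGNGGGCG matched at 3 places. It was searched on both strands and is given in capitals. Each match lies inside the first exon (5′ UTR) of a longer annotated transcript, which begins 231 bases before that start. That longer transcript took a median of 91.5% of Nab1 reads in B libraries and 90.9% in T libraries. For most Nab1 reads the sites therefore lie in transcribed sequence, after the start of the transcript and not before it. The sites span chr1:52500571-52500599 with the element at -141 to -133, chr1:52500539-52500567 with it at -109 to -101, and chr1:52500468-52500496 with it at -38 to -30.
Nab1 site 1: gccccgcggcCGCCCACGCcgggatctgc
Nab1 site 2: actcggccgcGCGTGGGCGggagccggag
Nab1 site 3: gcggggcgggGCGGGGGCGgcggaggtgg
The element was present in 4.7% of the 32851 promoter windows of this length and 3 or more copies in 0.14%, and a CArG box was present in 1.47%. Neither motif is spelled out in the Nab2 window, chr10:127666704-127666953 on the minus strand. These matches describe letters and not binding.

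The genes lie on chromosome 18 from 34859823 to 34864984 (Egr1, ENSMUSG00000038418.7), chromosome 10 from 67535475 to 67542188 (Egr2), chromosome 14 from 70077203 to 70082614 (Egr3), chromosome 1 from 52457294 to 52500679 (Nab1) and chromosome 10 from 127660918 to 127668568 (Nab2), all in GRCm38, and all code for protein. Nab2 shares exon sequence with Nemp1, Stat6 and Gm16229 on the opposite strand, and since the strand setting of the libraries is not given in the sources used here, reads of these genes may not be fully separable. Most Egr1 reads went to the coding transcript Egr1-202, with a median of 91.8% over the 30 B libraries. Egr3 differed from the others in this respect. A transcript annotated as retaining an intron, Egr3-202, took a median of 72.2% of Egr3 reads in B libraries (57.9% to 80.7%). In T libraries its median was 62.7%, but single libraries ran from 0% to 100%. The coding transcript Egr3-204 had medians of 27.2% in B and 36.5% in T libraries, the latter running from 0% to 97.95%. Egr3 reads were as few as 33 in an unstimulated naive T library.

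Libraries held 6694406 to 62073703 assigned reads in B cells and 7331354 to 34165479 in T cells, and EAE B anti-Btla libraries, at most 29522483, were all shallower than EAE B control Ig libraries, at least 36285628. B cell markers summed to 3874 to 6997 CPM in B libraries and 21.7 to 200.9 CPM in T libraries. The 8 T cell markers summed to 1897 to 3460 CPM in EAE T, 2164 to 2628 CPM in naive T and 17.5 to 34.3 CPM in B libraries. EAE T and naive T libraries also differed in markers of other cells. The CD8 markers Cd8a and Cd8b1 summed to 13.2 to 26.2 CPM in EAE T libraries, against 501 to 1097 CPM in naive T libraries. NK cell markers summed to 15.5 to 67.4 CPM in EAE T libraries and 92.9 to 183 CPM in naive T libraries, and myeloid markers to 40.2 to 372 CPM in EAE T libraries and 34.6 to 59.7 CPM in naive T libraries. In bulk RNA, fewer cells of a type and less RNA per cell cannot be told apart.

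Without stimulation the 5 genes stood at unlike levels, and Egr3 had the widest gap between B and T cells. On the TPM scale, which accounts for transcript length and allows genes to be compared, Egr3 averaged 39.8 ± 8.22 TPM in EAE B and 34.7 ± 3.59 TPM in naive B cells, but 1.76 ± 0.74 TPM in EAE T and 1.17 ± 0.21 TPM in naive T cells (SD, n = 3). Egr1 was at 16.2 and 14.5 TPM in EAE and naive B cells and at 5.62 and 7.77 TPM in EAE and naive T cells. Egr2 was the lowest of the 3 factors in B cells, at 4.15 TPM in EAE B and 3.601 TPM in naive B cells. Nab1 was the most even, at 27.2 to 30.6 TPM in all 4 unstimulated groups, and in resting T cells the corepressor mRNAs outweighed those of the factors they bind. Expressed as the sum of the 3 Egr genes over the sum of the 2 Nab genes in TPM, the ratio was 1.58 ± 0.13 in EAE B and 1.35 ± 0.086 in naive B cells, and 0.29 ± 0.057 in EAE T and 0.232 ± 0.009 in naive T cells (SD, n = 3). The sums take in all transcripts of each gene. Egr3 held 39.8 of the 60.1 TPM of the Egr sum in EAE B and 34.7 of 52.8 TPM in naive B cells. Most Egr3 reads in B libraries went to the transcript annotated as retaining an intron, so the B cell ratio rests largely on that transcript.

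**Figure D1:**
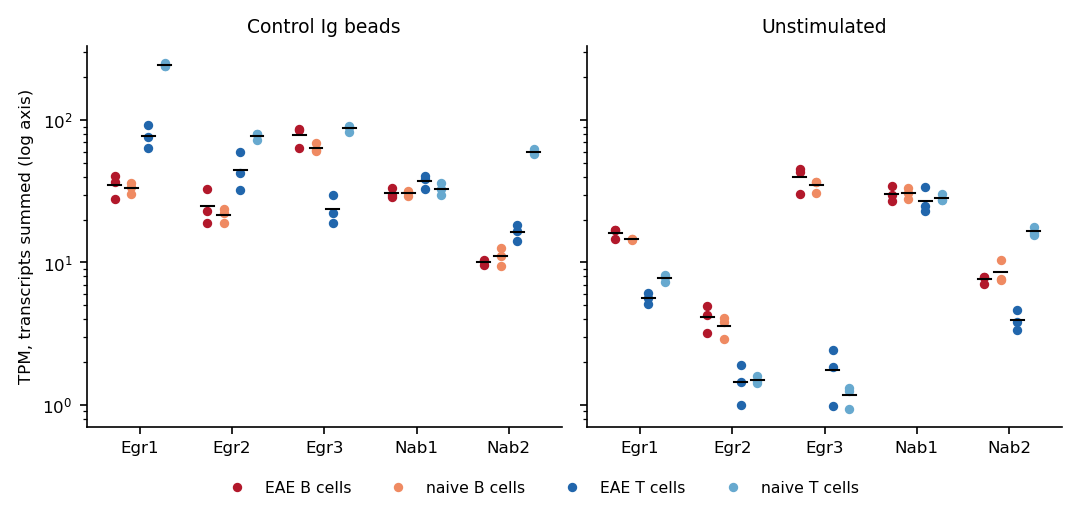
TPM of the 5 genes in control Ig libraries (left) and unstimulated libraries (right), each point 1 library, on a log axis. Resting Egr3 stands at 39.8 and 34.7 TPM on average in EAE and naive B cells and below 2 TPM in T cells, while Nab1 stays between 27.2 and 37.4 TPM on average in all 8 groups.

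Antigen receptor stimulation of B cells on control Ig beads raised all 5 genes in both mouse groups. By edgeR, 21.1% of 16989 tested genes were higher and 18.8% lower in EAE B cells, and 22.7% of 16618 were higher and 17.5% lower in naive B cells. The control Ig libraries used here also entered the difference that chose the genes. Egr1 stood at 92.4, 124 and 113 CPM in EAE B control Ig libraries, against 42.4, 49.1 and 43.6 CPM in unstimulated ones (log2 change 1.41 ± 0.12 SE, edgeR adjusted p = 8.86e-07). In naive B cells it stood at 107, 101 and 88.4 CPM with control Ig, against 37.5, 39.25 and 38.65 CPM unstimulated (1.46 ± 0.09, edgeR adjusted p = 1.42e-08). No stimulated library overlapped an unstimulated one for Egr1 in either mouse group.

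Egr2, much studied in T cell anergy, had the largest fold of the 5 in B cells. It reached 50.2, 71.7 and 58.4 CPM in EAE B control Ig libraries, against 10.4, 8.30 and 8.04 CPM unstimulated, a 7.26-fold change (log2 2.86 ± 0.13, edgeR adjusted p = 8.98e-09). In naive B cells it reached 51.9, 49.1 and 47.45 CPM with control Ig, against 9.04, 7.499 and 8.43 CPM unstimulated, or 6.40-fold (log2 2.68 ± 0.08, edgeR adjusted p = 2.59e-11). Egr3, a relative of Egr2 with overlapping roles, started high and its fold was smaller. EAE B cells gave 248.7, 313 and 309.9 CPM with control Ig, against 156, 104 and 134 CPM unstimulated (log2 1.29 ± 0.13, edgeR adjusted p = 3.11e-06). Naive B cells gave 240.5, 212 and 212.5 CPM with control Ig, against 117, 98.25 and 116 CPM unstimulated (log2 1.12 ± 0.05, edgeR adjusted p = 9.86e-10).

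The folds of the corepressors were smaller than those of the factors. Nab1 was at 108, 102.5 and 103 CPM in EAE B control Ig libraries, against 95.1, 77.6 and 98.6 CPM unstimulated (log2 0.35 ± 0.09, edgeR adjusted p = 0.00592), and in naive B cells at 102, 93.2 and 105 CPM, against 89.3, 81.4 and 90.0 CPM unstimulated (0.31 ± 0.07, edgeR adjusted p = 0.00123). Nab2 was at 23.3, 20.2 and 22.5 CPM in EAE B control Ig libraries, against 15.2, 15.9 and 11.8 CPM unstimulated (0.76 ± 0.12, edgeR adjusted p = 0.000158). In naive B cells Nab2 was at 23.2, 26.9 and 17.3 CPM with control Ig, against 12.9, 18.3 and 13.4 CPM unstimulated (0.70 ± 0.16, edgeR adjusted p = 0.00221). These last were the only groups of the 5 genes that overlapped, through the lowest control Ig and the highest unstimulated library.

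Anti-CD3 stimulation raised all 5 genes in T cells, and each Egr gene by 12.0-fold or more. In EAE T cells 31.7% of 14547 genes were called higher and 31.4% lower, and in naive T cells 27.1% of 15137 were higher and 23% lower. Egr1 reached 229.8, 181 and 202 CPM in EAE T control Ig libraries, against 17.4, 14.3 and 19.5 CPM unstimulated, or 12.0-fold (log2 3.59 ± 0.10, edgeR adjusted p = 8.22e-13). In naive T cells it reached 686, 792 and 727.5 CPM with control Ig, against 20.6, 24.7 and 23.97 CPM unstimulated, or 32.7-fold (5.03 ± 0.07, edgeR adjusted p = 3.40e-19). Egr3, nearly absent at rest, had the largest fold of the 5 in naive T cells. EAE T cells held 86.4, 60.4 and 70.1 CPM of Egr3 with control Ig, against 8.15, 5.68 and 3.97 CPM unstimulated, or 13.8-fold (3.78 ± 0.17, edgeR adjusted p = 4.23e-11). Naive T cells held 295.5, 334 and 289 CPM with control Ig, against 4.285, 3.34 and 4.785 CPM unstimulated, or 74.8-fold (6.23 ± 0.09, edgeR adjusted p = 6.16e-19).

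Egr2 had the largest fold of the 5 in EAE T cells. It was at 82.9, 59.2 and 68.5 CPM in EAE T control Ig libraries, against 2.805, 3.87 and 2.92 CPM unstimulated, or 23.1-fold (4.53 ± 0.15, edgeR adjusted p = 5.56e-12). In naive T cells it was at 144, 161.5 and 142 CPM with control Ig, against 4.415, 4.28 and 4.18 CPM unstimulated, or 36.3-fold (5.18 ± 0.08, edgeR adjusted p = 6.90e-19). Stimulated and unstimulated T cell libraries did not overlap for any of the 3 factors. Markers of other cells also moved with stimulation. In EAE T cells 4 of 4 NK cell markers and 5 of 9 myeloid markers were lower and 7 of 8 T cell markers higher with control Ig. Over all genes 31.4% were lower and 31.7% higher there. In naive T cells CD8 markers summed to 597.5 to 751.8 CPM with control Ig, against 925.9 to 1097 CPM unstimulated. NK cell markers summed to 100.9 to 110.9 CPM, against 153 to 183.1 CPM, while myeloid and T cell marker sums overlapped. The part of these markers in the Egr values was not tested.

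**Figure D2:**
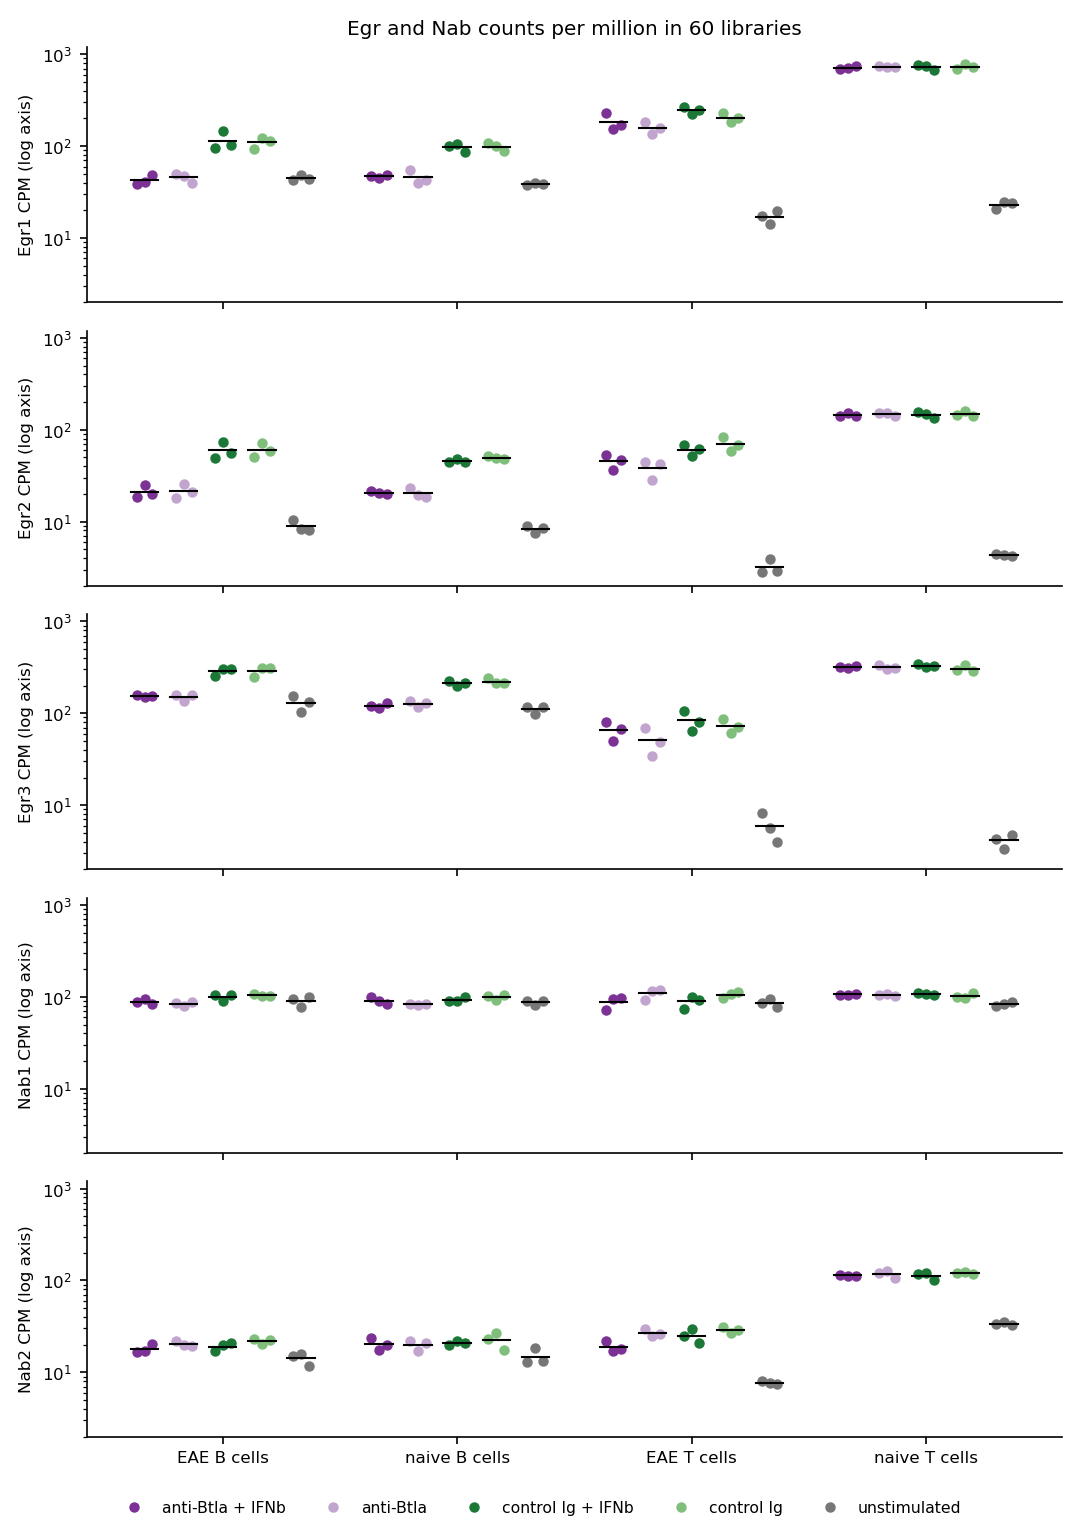
CPM of each gene in all 60 libraries on a log axis, with the 5 arms side by side within EAE B, naive B, EAE T and naive T cells and a black line at each mean. Egr1 runs over all libraries between 14.3 and 792 CPM, Egr2 between 2.805 and 161.5 CPM and Egr3 between 3.34 and 344 CPM, while Nab1 stays within 72.5 to 119 CPM.

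The fold of Nab2 in T cells lay between those of the factors and that of Nab1. It stood at 31.1, 26.55 and 28.8 CPM in EAE T control Ig libraries, against 7.99, 7.62 and 7.52 CPM in unstimulated ones, or 3.82-fold (1.93 ± 0.14, edgeR adjusted p = 7.35e-09). In naive T cells all Nab2 levels were higher, at 120.3, 124 and 117 CPM with control Ig, against 33.5, 35.5 and 32.6 CPM unstimulated, or 3.71-fold (1.89 ± 0.06, edgeR adjusted p = 1.05e-14). Nab1 was at 96.7, 106 and 113 CPM in EAE T control Ig libraries, against 84.8, 94.35 and 78.4 CPM unstimulated (0.34 ± 0.09, edgeR adjusted p = 0.00489), a call lost without the replicate block (edgeR adjusted p = 0.05005). In naive T cells Nab1 was at 100.4, 96.0 and 111 CPM with control Ig, against 80.4, 83.0 and 86.9 CPM unstimulated (0.36 ± 0.06, edgeR adjusted p = 3.34e-05). The summed Egr over Nab ratio in TPM with control Ig came to 3.399 ± 0.55 in EAE B, 2.84 ± 0.14 in naive B, 2.70 ± 0.42 in EAE T and 4.41 ± 0.25 in naive T cells (SD, n = 3).

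The changes with activation were compared directly between the cell types as the B cell minus the T cell log2 change. Over all genes this difference was called lower for 19.7% in EAE cells and for 14.7% in naive cells. In EAE cells it was -2.18 ± 0.17 for Egr1 (edgeR adjusted p = 7.06e-10), -1.67 ± 0.22 for Egr2 (edgeR adjusted p = 2.06e-06), -2.51 ± 0.23 for Egr3 (edgeR adjusted p = 7.27e-09) and -1.17 ± 0.19 for Nab2 (edgeR adjusted p = 3.61e-05). In naive cells these 4 genes were called as well, at -3.62 ± 0.13, -2.55 ± 0.12, -5.16 ± 0.11 and -1.23 ± 0.18 for Egr1, Egr2, Egr3 and Nab2 (largest edgeR adjusted p = 7.71e-06). The Nab1 difference was 0.0008 ± 0.13 in EAE cells and -0.10 ± 0.09 in naive cells (edgeR adjusted p = 1 and 0.52). B and T cells received different stimuli, so cell type and stimulus cannot be told apart here. The B cell control Ig libraries also entered the difference that chose the genes.

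With anti-Btla on the beads in place of control Ig, and no IFNb, Egr1 and Egr3 in B cells lay close to their unstimulated levels and Egr2 between its unstimulated and control Ig levels. These are the values that chose the genes. Egr1 measured 49.7, 47.6 and 39.5 CPM in EAE B anti-Btla libraries, against 92.4, 124 and 113 CPM with control Ig (log2 -1.32 ± 0.13, and -1.53 without EAE B anti-Btla replicate 1), and in naive B cells 54.6, 39.7 and 42.6 CPM, against 107, 101 and 88.4 CPM with control Ig (-1.20 ± 0.09). Egr2 measured 18.2, 25.75 and 21.1 CPM in EAE B anti-Btla libraries (-1.56 ± 0.13) and 22.98, 19.55 and 18.4 CPM in naive B anti-Btla libraries (-1.38 ± 0.08). Egr3 measured 159, 135 and 158 CPM in EAE B anti-Btla libraries (-1.03 ± 0.13) and 134.5, 116 and 130.2 CPM in naive B anti-Btla libraries (-0.90 ± 0.05). For each of the 3 factors every anti-Btla library of B cells lay below every control Ig library of its mouse group.

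Nab1 lay at 84.8, 79.3 and 87.8 CPM in EAE B anti-Btla libraries (-0.40 ± 0.09) and at 83.0, 81.6 and 83.7 CPM in naive B anti-Btla libraries (-0.36 ± 0.07), also below the control Ig libraries, while the Nab2 groups overlapped in both mouse groups (-0.18 ± 0.12 in EAE B, -0.25 ± 0.16 in naive B cells). EAE T cells gave -0.34 ± 0.08 for Egr1, -0.84 ± 0.11 for Egr2 and -0.52 ± 0.13 for Egr3. Among these Egr2 alone had no overlap, at 44.4, 28.5 and 42.4 CPM in EAE T anti-Btla libraries, against 82.9, 59.2 and 68.5 CPM with control Ig. In naive T cells the 5 log2 changes ran from -0.06 to 0.04 with a largest SE of 0.06, and all groups overlapped. Whether the change differed between cell types or mouse groups was not tested.

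The arms with IFNb were separate libraries that did not enter the difference above, although the genes were chosen with their results in view. There, anti-Btla + IFNb was set against control Ig + IFNb. In EAE B cells 17.4% of genes were called lower and 13.6% higher, and in naive B cells 17.6% lower and 12% higher. All 3 Egr genes fell in both. Egr1 was at 38.4, 41.1 and 48.1 CPM in EAE B anti-Btla + IFNb libraries, against 94.7, 145 and 102 CPM in control Ig + IFNb libraries (log2 -1.46 ± 0.12, edgeR adjusted p = 2.03e-06). In naive B cells it was at 47.7, 45.2 and 48.1 CPM, against 101, 105 and 86.3 CPM in control Ig + IFNb libraries (-1.10 ± 0.09, edgeR adjusted p = 4.85e-07). The groups did not overlap for any of the 3 factors in either mouse group.

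Egr2 was at 18.3, 24.96 and 19.8 CPM in EAE B anti-Btla + IFNb libraries, against 49.4, 74.2 and 55.9 CPM in control Ig + IFNb libraries (-1.57 ± 0.13, edgeR adjusted p = 1.72e-06), and in naive B cells at 21.4, 20.2 and 19.85 CPM, against 44.1, 47.4 and 44.8 CPM (-1.20 ± 0.08, edgeR adjusted p = 5.25e-08). Egr3 was at 156, 149.9 and 154.5 CPM in EAE B anti-Btla + IFNb libraries, against 256.5, 305.5 and 302.5 CPM in control Ig + IFNb libraries (-0.97 ± 0.13, edgeR adjusted p = 6.23e-05), and in naive B cells at 120.1, 115 and 128 CPM, against 225, 196 and 215 CPM (-0.86 ± 0.05, edgeR adjusted p = 3.76e-08). Neither corepressor passed the test in B cells. Nab1 came to -0.22 ± 0.09 in EAE B (edgeR adjusted p = 0.06995) and -0.08 ± 0.07 in naive B cells (edgeR adjusted p = 0.433), and leaving out EAE B anti-Btla + IFNb replicate 2 gave -0.35 in EAE B cells with an edgeR adjusted p of 0.006996. Nab2 came to -0.15 ± 0.12 in EAE B and -0.09 ± 0.16 in naive B cells (edgeR adjusted p = 0.39 and 0.738).

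In T cells the comparison with IFNb called 0 of the 5 genes by edgeR with the filter on low counts. Without that filter edgeR called Egr1 (-0.42, edgeR adjusted p = 0.00234) and Egr2 (-0.42, edgeR adjusted p = 0.0473) in EAE T cells. For EAE T cells, where 0% of genes were called by edgeR although 1417 had an unadjusted p below 0.05 and DESeq2 called 31, Egr1 was at 228, 153 and 172 CPM in anti-Btla + IFNb libraries, against 269, 222 and 245 CPM in control Ig + IFNb libraries (-0.39 ± 0.08, edgeR adjusted p = 0.319, DESeq2 adjusted p = 0.00848). The other changes in EAE T cells were -0.39 ± 0.11 for Egr2, -0.31 ± 0.13 for Egr3, 0.02 ± 0.09 for Nab1 and -0.37 ± 0.13 for Nab2, and 4 of the 5 had an unadjusted p below 0.05. For naive T cells, where 0.0132% of genes were called in either direction (918 at an unadjusted p below 0.05, 13 by DESeq2), the 5 log2 changes ran from -0.03 to 0.02 with a largest SE of 0.06, 0 had an unadjusted p below 0.05, and DESeq2 called 0. All of these T cell groups overlapped.

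**Figure D3:**
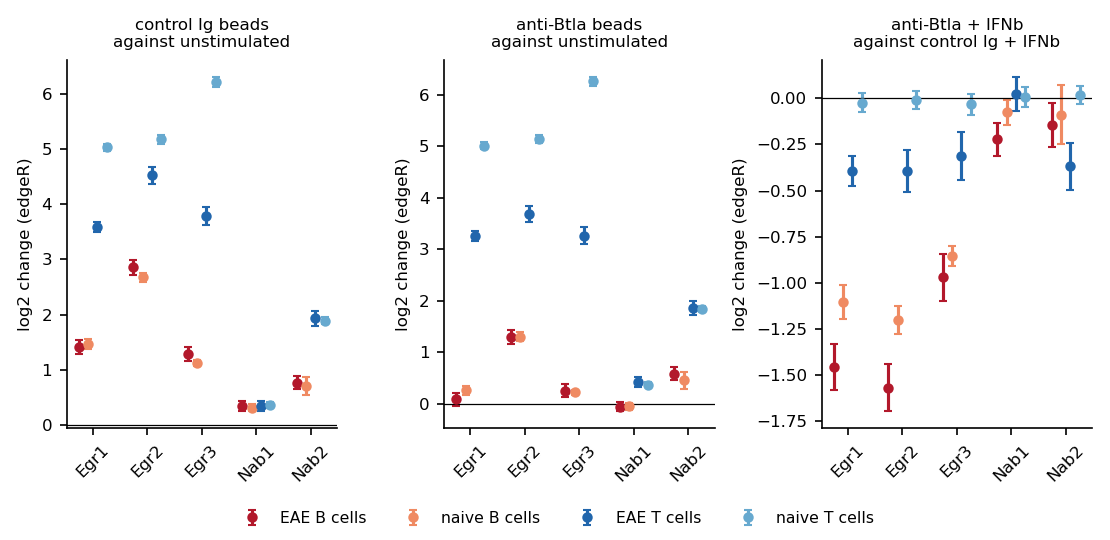
Log2 change ± SE of the 5 genes in EAE B, naive B, EAE T and naive T cells for control Ig against unstimulated, anti-Btla beads against unstimulated, and anti-Btla + IFNb against control Ig + IFNb. The Egr genes lie between 1.12 and 6.23 in the first panel, and in the last panel between -1.57 and -0.86 in B cells and between -0.39 and -0.01 in T cells.

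How far the genes stood above rest under anti-Btla was measured by setting anti-Btla bead libraries against unstimulated ones, a comparison that shares the anti-Btla libraries with the difference that chose the genes. In EAE B cells 3.24% of genes were called higher, and 2 of the 5 were among them. Egr2 was higher by 1.30 ± 0.14 (edgeR adjusted p = 0.00014) and Nab2 by 0.58 ± 0.12 (edgeR adjusted p = 0.0124). The Nab2 call was lost without EAE B anti-Btla replicate 1 (0.50, edgeR adjusted p = 0.0967) or 2 (0.58, edgeR adjusted p = 0.05265) and without unstimulated replicate 3 (0.43, edgeR adjusted p = 0.0578). Egr1 and Egr3 were at 0.09 ± 0.13 and 0.26 ± 0.13 (edgeR adjusted p = 0.796 and 0.3135), Nab1 at -0.06, and their groups overlapped.

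In naive B cells 3.65% of genes were called higher, also with 2 of the 5, Egr2 with 1.30 ± 0.09 (edgeR adjusted p = 6.56e-07) and Egr3 with 0.22 ± 0.05 (edgeR adjusted p = 0.0198). The Egr3 call was lost without the replicate block (edgeR adjusted p = 0.153) and without anti-Btla replicate 1 or 3 or unstimulated replicate 1 or 2 (edgeR adjusted p = 0.06345 to 0.0803). Egr1, at 0.26 ± 0.09, did not pass (edgeR adjusted p = 0.122, DESeq2 adjusted p = 0.0494), but did without anti-Btla replicate 2 (0.36, edgeR adjusted p = 0.028). Nab2, at 0.46 ± 0.16, did not pass either (edgeR adjusted p = 0.1103), but did under DESeq2 (adjusted p = 0.0258), without a filter on low counts (0.45, edgeR adjusted p = 0.0142), without anti-Btla replicate 2 (0.61, edgeR adjusted p = 0.0359) and without unstimulated replicate 2 (0.64, edgeR adjusted p = 0.0401). Egr2 was the member whose anti-Btla libraries stood clear of the unstimulated libraries in both mouse groups and was called in both, with 18.2 to 25.75 CPM against 8.04 to 10.4 CPM in EAE B cells and 18.4 to 22.98 CPM against 7.499 to 9.04 CPM in naive B cells. In T cells 32.1% of genes in EAE and 27.5% in naive cells were called higher, and all 5 members were, the Egr genes by 3.25 to 3.69 in EAE T and 5.01 to 6.26 in naive T cells.

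Soluble IFNb added to control Ig beads gave 0 called changes of the 5 genes by edgeR in each of the 4 sets. Here too the B cell control Ig libraries without IFNb had entered the difference that chose the genes. The share of all genes called in either direction was 0% in EAE B cells (400 genes at an unadjusted p below 0.05, 1 by DESeq2), 0% in naive B cells (607 and 2), 0.158% in EAE T cells (1355 and 114) and 0% in naive T cells (926 and 3). The 20 log2 changes of the members ran from -0.24 to 0.34 with a largest SE of 0.16. The top value was that of Egr1 in EAE T cells, at 269, 222 and 245 CPM with control Ig + IFNb, against 229.8, 181 and 202 CPM with control Ig (0.34 ± 0.08, edgeR adjusted p = 0.1775). DESeq2 gave an adjusted p of 0.0178 for it and the edgeR fit without a filter on low counts an adjusted p of 0.0114, and the groups overlapped. Of the other 19 values, Nab2 in naive T cells also had an unadjusted p below 0.05, and DESeq2 called none of them.

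EAE T cells had less mRNA of 4 of the 5 genes than naive T cells once stimulated. Over all genes, 23.9% were called lower in EAE than in naive T cells with control Ig and 17% without stimulation. Egr1 averaged 204 ± 24.5 CPM in EAE T control Ig libraries and 735 ± 53.6 CPM in naive T control Ig libraries (log2 -1.77 ± 0.09, edgeR adjusted p = 4.81e-07). Egr2 averaged 70.2 ± 11.9 CPM in EAE T and 149 ± 10.5 CPM in naive T cells (-1.01 ± 0.11, edgeR adjusted p = 4.32e-05), and Egr3 72.3 ± 13.2 CPM in EAE T and 306 ± 24.5 CPM in naive T cells (-2.004 ± 0.11, edgeR adjusted p = 8.51e-07). No library of one mouse group reached into the range of the other for these 3 genes.

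Nab2 was lower in EAE T cells without stimulation already. It averaged 7.71 ± 0.25 CPM in EAE T and 33.9 ± 1.46 CPM in naive T unstimulated libraries (-2.06 ± 0.11, edgeR adjusted p = 4.07e-06), and with control Ig 28.8 ± 2.26 CPM in EAE T and 120.5 ± 3.56 CPM in naive T libraries (-1.98 ± 0.08, edgeR adjusted p = 9.99e-08). The other 4 genes did not pass the test in unstimulated T cells, with Egr1 at -0.35 ± 0.14 (edgeR adjusted p = 0.0712), Egr2 at -0.35 (0.292), Egr3 at 0.55 ± 0.30 (0.191) and Nab1 at 0.12 (0.371). Egr1 did pass without a filter on low counts (-0.39, edgeR adjusted p = 0.0365) and without EAE T unstimulated replicate 3 (-0.47, edgeR adjusted p = 0.0436). Nab1 did not pass in control Ig T cells (0.12 ± 0.09, edgeR adjusted p = 0.311). The part of the unequal CD8 marker levels given above, 13.2 to 26.2 CPM in EAE T and 501 to 1097 CPM in naive T libraries, in these differences was not tested.

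The EAE minus naive difference of the activation change in T cells was lower for 17% and higher for 20.8% of genes. For Egr1 it was -1.39 ± 0.12 (edgeR adjusted p = 2.29e-09), for Egr3 -2.34 ± 0.22 (edgeR adjusted p = 8.60e-09) and for Egr2 -0.57 ± 0.19 (edgeR adjusted p = 0.0188). The Egr2 call was lost without the replicate block (-0.58, edgeR adjusted p = 0.09085), without the libraries numbered 2 (-0.32, edgeR adjusted p = 0.216) and without those numbered 3 (-0.70, edgeR adjusted p = 0.0904). For Nab2 the difference was 0.11 ± 0.14 (edgeR adjusted p = 0.604) and for Nab1 0.06 ± 0.11 (edgeR adjusted p = 0.741).

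**Figure D4:**
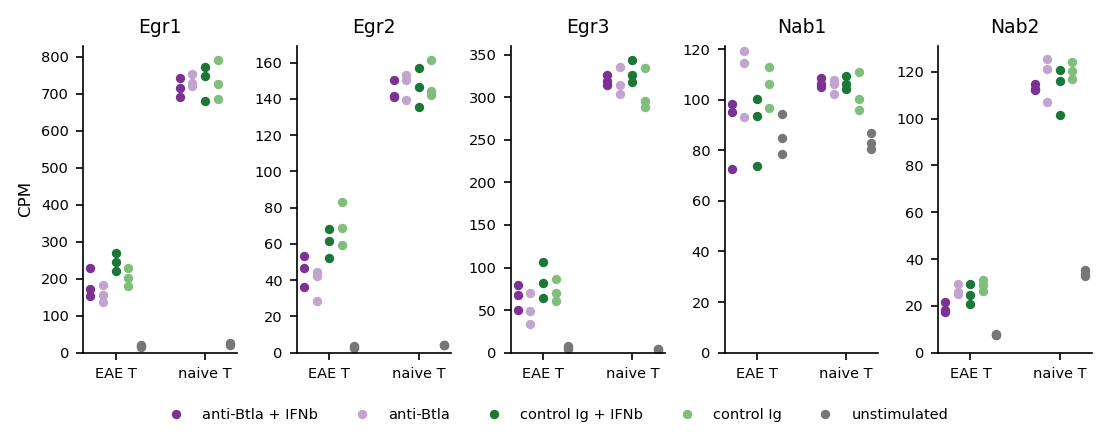
CPM of the 5 genes in EAE T and naive T libraries on linear axes, by arm, each point 1 library. With control Ig, Egr1, Egr3 and Nab2 average 204, 72.3 and 28.8 CPM in EAE T cells against 735, 306 and 120.5 CPM in naive T cells, and Nab1 levels overlap.

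In B cells edgeR called 0 of the 5 genes between EAE and naive mice. Control Ig libraries compared here also entered the difference that chose the genes. Of all genes, 0.0492% were called in either direction in unstimulated B cells (1175 at an unadjusted p below 0.05, 178 by DESeq2), 0.0189% in control Ig B cells (892 and 67) and 0.0808% for the EAE minus naive difference of the activation change (815 and 37). Of the 5 members 1, 2 and 0 had an unadjusted p below 0.05 in these comparisons in that order, and DESeq2 called 0, 1 and 0. The 10 EAE against naive log2 changes ran from -0.03 to 0.44. The top value, that of Egr3 in control Ig B cells, was 0.44 ± 0.09 (edgeR adjusted p = 0.413, DESeq2 adjusted p = 0.0121), and every EAE library, at 248.7, 313 and 309.9 CPM, lay above every naive one, at 240.5, 212 and 212.5 CPM. The differences of activation ran from -0.04 to 0.19 with a largest SE of 0.22.

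Ordered by mean CPM over the 20 groups, Egr1 had the 4 stimulated naive T groups on top (717 to 735 CPM), clear of the next, then the 4 stimulated EAE T groups (158.5 to 245 CPM), then the B control Ig arms (97.6 to 114 CPM), then with a gap the B anti-Btla and unstimulated arms (38.5 to 47.0 CPM), and last, after another gap, unstimulated EAE T cells at 17.05 CPM, below unstimulated naive T cells at 23.1 CPM. Neighbours within the first 4 of these blocks overlapped. Group means of Egr2 were up to 46.7-fold apart, against 43.1-fold for Egr1, and had the stimulated naive T groups on top and the unstimulated T groups at the bottom too. Egr3 differed from both, for EAE B control Ig libraries (290.4 CPM) overlapped the stimulated naive T libraries (306 to 329 CPM), while stimulated EAE T groups (50.6 to 83.9 CPM) ranked below all B groups. Nab1 means spanned only 82.8 to 109 CPM and each neighbour overlapped the next. Nab2 set naive T cells apart, stimulated (113 to 120.5 CPM) and unstimulated (33.9 CPM), from the other groups.

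The genes whose 20 group means of log2(CPM + 1) were most like those of Egr1, of 10230 genes with at least 10 CPM in a group, were Nr4a1 and Nr4a3, orphan nuclear receptors that antigen receptors induce, with Bud31, Srfbp1 and Lonp1 (Pearson r = 0.98 each). For Egr2 they were Tuba1c, Lig3, Gm9892, Lonp1 and Slc1a5 (0.94 to 0.96), and for Egr3 Bcat1, Qtrt2, Asns, Polr3d and Mthfd2 (0.97 each). Over the 10 B groups alone the values ran from 0.82 to 0.98 for Egr1, 0.77 to 0.94 for Egr2 and 0.60 to 0.97 for Egr3. Over the 10 T groups alone those of the 3 factors were all 0.97 or higher. Nab1 had Usmg5, Gnai3, Uba3, Utp11 and Rer1 (0.86 to 0.89). Nab2 had Pdrg1, Diexf, Spag7, Wdr70 and Ddit4 (0.95 to 0.98), which over the 10 B groups alone came to between -0.42 and 0.55 and over the 10 T groups to between 0.97 and 0.99. Egr1 and Egr3 correlated at 0.60 over all groups, 0.95 over B groups and 0.99 over T groups, and Nab1 and Nab2 at 0.63, 0.39 and 0.66. The points share stimulation arms and libraries, so these values are a description.

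Cofactors of the Egr proteins were followed together with Egr4. With so few genes the counts are not read as a result on that list. Of Chd3, Chd4, Ddx20, Hcfc1, Crebbp, Ep300 and the fourth family member Egr4, 2 of 6 tested were higher and 3 lower with activation in EAE B cells (21.1% and 18.8% over all genes), 2 and 3 of 6 in naive B cells (22.7% and 17.5%), 3 and 3 of 6 in EAE T cells (31.7% and 31.4%) and 4 and 3 of 7 in naive T cells (27.1% and 23%). Chd4, the remodeller that Nab2 recruits, was higher with activation by 0.22 ± 0.06 in EAE B (edgeR adjusted p = 0.00979), 0.74 ± 0.09 in EAE T (2.02e-06) and 0.43 ± 0.04 in naive T cells (1.53e-08), with 0.14 in naive B cells (0.0562). Ddx20, an RNA helicase that binds Egr proteins and represses, was higher by 0.17 ± 0.06 in naive B, 0.69 ± 0.12 in EAE T and 0.45 ± 0.10 in naive T cells (edgeR adjusted p = 0.0285, 0.000122 and 0.00082), with 0.14 in EAE B cells (0.107). With anti-Btla + IFNb both fell in EAE B cells, Chd4 by 0.28 and Ddx20 by 0.24 on the log2 scale (edgeR adjusted p = 0.00244 and 0.0141), with -0.13 and -0.16 in naive B cells (0.0789 and 0.0537). Egr4 had counts of 4, 12 and 20 in naive T control Ig libraries, against 0, 0 and 0 in unstimulated ones, and at most 3 in any B or EAE T library.

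Factors upstream of the Egr genes stood at 3 higher and 2 lower of 9 tested in EAE B (21.1% and 18.8% over all genes), 3 and 3 in naive B (22.7% and 17.5%), 4 and 3 in EAE T (31.7% and 31.4%) and 3 and 5 in naive T cells (27.1% and 23%). With so few genes these counts are not read as a result on the list. Srf, serum response factor, was higher with activation by 0.98 ± 0.14 in EAE T and 0.67 ± 0.09 in naive T cells (edgeR adjusted p = 1.40e-05 and 3.13e-06), with -0.02 ± 0.16 in EAE B and 0.04 ± 0.12 in naive B cells. Elk1, a MAP kinase target that partners it, fell by 0.33 in naive T cells (edgeR adjusted p = 0.047), with 0.01 in EAE B, 0.03 in naive B and 0.11 in EAE T cells.

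Immediate early genes, which like the Egr genes answer receptor signals without new protein synthesis, were followed as a list of 24. The list was chosen with earlier results of these data known, so its counts are given as a description. With activation 10 were higher and 4 lower in EAE B (median log2 0.21, against -0.05 over all genes), 10 and 6 in naive B (0.21, against -0.02), 17 and 4 in EAE T (1.59, against -0.07) and 21 and 0 in naive T cells (2.59, against -0.02). Over all genes 21.1% were higher and 18.8% lower in EAE B, 22.7% and 17.5% in naive B, 31.7% and 31.4% in EAE T and 27.1% and 23% in naive T cells, and a difference in these counts between B and T cells was not tested. Nr4a1 averaged 51.5 ± 2.10 CPM in EAE T control Ig libraries, against 5.76 ± 0.41 CPM unstimulated, and 359 ± 41.7 CPM in naive T control Ig libraries, against 3.57 ± 0.67 CPM unstimulated. Its change was 1.11 ± 0.16 in EAE B, 1.18 ± 0.11 in naive B, 3.22 ± 0.13 in EAE T and 6.65 ± 0.10 in naive T cells (largest edgeR adjusted p = 7.09e-05). Fos, an AP-1 subunit, rose by 1.12 ± 0.33 in naive B, 1.77 ± 0.21 in EAE T and 3.89 ± 0.22 in naive T cells (edgeR adjusted p = 0.0132, 2.70e-06 and 6.05e-11), with 0.70 in EAE B cells (0.114).

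With anti-Btla + IFNb 10 of the 24 immediate early genes were lower and 1 higher in EAE B (17.4% and 13.6% over all genes; median -0.56, against 0.03) and 9 lower and 3 higher in naive B cells (17.6% and 12%; median -0.39, against 0.0021). Nr4a1 fell by 1.40 in EAE B and 1.09 in naive B cells on the log2 scale (edgeR adjusted p = 2.29e-05 and 2.51e-06), and Fos was at -0.47 and -0.41 without passing (0.359 and 0.437). For the EAE minus naive difference of activation in T cells 18 of 24 were lower and 1 higher (17% and 20.8% over all genes; median -0.91, against -0.03), with Nr4a1 at -3.37 ± 0.19 and Fos at -2.06 ± 0.32 (edgeR adjusted p = 1.63e-12 and 1.10e-05).

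Genes linked to Egr factors in earlier work, among them E3 ligases of T cell anergy, cell cycle inhibitors and costimulatory molecules, were followed as a list of 27. This list too was chosen with earlier results of these data known, and its counts are given as a description. With activation 8 of 26 tested were higher and 7 lower in EAE B (21.1% and 18.8% over all genes), 8 and 6 of 25 in naive B (22.7% and 17.5%), 12 and 9 of 26 in EAE T (31.7% and 31.4%) and 20 and 4 of 27 in naive T cells (27.1% and 23%). The median log2 change was 0.13 in EAE B (-0.05 over all genes), 0.06 in naive B (-0.02), 0.13 in EAE T (-0.07) and 1.09 in naive T cells (-0.02). Tnfrsf9, the costimulatory receptor 4-1BB, rose by 1.71 ± 0.35 in EAE B, 1.54 ± 0.37 in naive B, 2.38 ± 0.24 in EAE T and 5.17 ± 0.08 in naive T cells (largest edgeR adjusted p = 0.00341). Cdkn1a, the cell cycle inhibitor p21, rose by 0.46 ± 0.15 in EAE B, 0.58 ± 0.12 in naive B, 1.38 ± 0.19 in EAE T and 3.55 ± 0.11 in naive T cells (largest edgeR adjusted p = 0.0228). Cblb, an E3 ligase that restrains T cell activation and a known Egr2 and Egr3 target, fell by 0.27 in EAE B and 0.24 in naive B cells (edgeR adjusted p = 0.000737 and 0.00199) and was higher by 0.19 ± 0.08 in EAE T and 0.48 ± 0.04 in naive T cells (0.04225 and 5.40e-09).

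Other members of that list did not share a direction. Rnf128 (GRAIL), another E3 ligase, fell by 1.23 in EAE T cells (edgeR adjusted p = 0.0281) and was at -1.0004 in EAE B, -0.95 in naive B and -0.48 in naive T cells without passing. Fasl, the death receptor ligand, fell by 0.47 in EAE T cells and was higher by 1.39 ± 0.14 in naive T cells (edgeR adjusted p = 0.0145 and 1.24e-07). Id3, an inhibitor of E protein factors, rose by 1.03 ± 0.26 in EAE T and 2.18 ± 0.14 in naive T cells (edgeR adjusted p = 0.00262 and 2.26e-10), with 0.09 in EAE B and 0.03 in naive B cells. For the EAE minus naive difference of activation in T cells 20 of 27 were lower and 2 higher (17% and 20.8% over all genes; median -0.98, against -0.03), with Tnfrsf9 at -2.74 ± 0.29, Cdkn1a at -2.09 ± 0.24, Fasl at -1.79 ± 0.20, Id3 at -1.12 ± 0.28 and Cblb at -0.23 ± 0.08 (largest edgeR adjusted p = 0.0276).

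With anti-Btla + IFNb 12 of 26 Egr-linked genes were lower and 5 higher in EAE B (17.4% and 13.6% over all genes; median -0.34, against 0.03) and 8 of 25 lower and 3 higher in naive B cells (17.6% and 12%; median -0.26, against 0.0021). Cdkn1a fell by 1.35 in EAE B and 1.29 in naive B cells on the log2 scale (edgeR adjusted p = 2.14e-05 and 2.90e-06), Tnfrsf9 fell by 1.23 in EAE B cells (0.0166) with -0.91 in naive B cells (0.0851), and Cblb was higher by 0.23 ± 0.05 in EAE B cells (0.00396) with 0.08 in naive B cells (0.281). Btla itself, the receptor that the antibody binds, averaged 319 ± 21.7 CPM in EAE B, 372 ± 23.7 CPM in naive B, 261 ± 30.2 CPM in EAE T and 117 ± 7.82 CPM in naive T control Ig libraries. Its level differed between arms. EAE B cells averaged 557 CPM unstimulated, 507 CPM with anti-Btla and 557 CPM with anti-Btla + IFNb, and naive B cells 652, 589 and 561 CPM. Unstimulated T cells averaged 120 CPM in EAE and 63.0 CPM in naive mice. Tnfrsf14, which encodes the Btla ligand Hvem, averaged 7.08 to 34.3 CPM over the 20 groups.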

How the data were processed

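The deposited tables hold, per transcript, estimated counts and TPM that the authors obtained from raw reads with Salmon; the submitters' processing notes name GRCm38 and DESeq2, while the sources used here do not give library kit, strand setting or annotation release. Of 67 tables, 7 libraries had 2 runs, which were summed, giving 60 libraries in 20 groups of 3. Transcripts were assigned to genes with GENCODE M21. Those without a match there (648 in B and 1000 in T tables, at most 0.708% of reads) were left out. CPM, counts scaled to a fixed library total, used all reads assigned to genes. Gene counts were rounded and fitted with the edgeR 4.0.16 quasi-likelihood F-test (R 4.3.3, TMM scaling, filterByExpr with a minimum count of 10), one fit per mouse group and cell type with replicate number as a block after the study's general methods, and EAE against naive without one. Differences between activation changes came from joint fits over both mouse groups of a cell type or both cell types of a mouse group. Those joint fits had their own scaling and filter, with replicate number as a block within each mouse group and cell type. P-values were adjusted by Benjamini-Hochberg over all genes and called below 0.05, and SE is the log2 change over the root of F. TMM moved levels by -4.52 to 6.86% in B and -5.77 to 10.4% in T cells against CPM, so a ratio of CPM and a fitted fold can differ. DESeq2 1.42.0, its size factors, no filter, the fit with or without the block and leaving out libraries were tried, and scripts were tested on simulated data. Runs of 1 library differed by close to sampling noise (chi-square per gene 1.53 to 1.65), replicate libraries by more (4.39 to 55.2), so none was merged. Depth sets counting error only. The members and lists were chosen with earlier results of these data known. Named are the members, for each the 5 genes with the highest Pearson correlation over group means, Btla and Tnfrsf14, and 13 list genes (Egr4, Srf, Elk1, Chd4, Ddx20, Fos, Nr4a1, Cblb, Rnf128, Fasl, Tnfrsf9, Cdkn1a, Id3).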

Additional observations from a re-analysis of the deposited data

Results flagged for a closer look

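For 11 results the change with activation differed between cell types or mouse groups by a direct edgeR test of the difference (adjusted p below 0.05 over all genes). EAE minus naive T cells gave -1.39 for Egr1, -0.57 for Egr2 and -2.34 for Egr3. B minus T cells gave -2.18 for Egr1, -1.67 for Egr2, -2.51 for Egr3 and -1.17 for Nab2 in EAE mice. They gave -3.62, -2.55, -5.16 and -1.23 for these 4 genes in naive mice. For B minus T cells, the B cell control Ig libraries also entered the difference that chose the genes. The antigen receptor stimulus differed between B and T cells, CD8 markers summed to 13.2 to 26.2 CPM in EAE T and 501 to 1097 CPM in naive T libraries, and the part of either was not tested.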

How the results depend on the processing

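Of the members' tested changes, 114 of 120 kept direction and side of the threshold with DESeq2, 119 with its size factors and 112 without a filter on low counts, as did 96 of 100 without the replicate block and all 20 EAE against naive changes with it. Leaving out libraries kept 610, turned the sign of 36, lost 9 calls and gained 5. Counts of members called moved as follows. For anti-Btla beads against unstimulated in naive B cells 2 became 1 without the replicate block, 3 without a filter, 4 with DESeq2 and 1 to 4 without single libraries, and in EAE B cells 2 became 1 to 2 without single libraries. For IFNb in EAE T cells 0 became 1 without a filter and 1 with DESeq2. For anti-Btla + IFNb in EAE T cells 0 became 2 without a filter and 1 with DESeq2. For EAE against naive, 0 became 1 with DESeq2 in control Ig B cells, and 1 became 2 without a filter and 1 to 2 without single libraries in unstimulated T cells. Smaller moves were 3 to 4 for anti-Btla + IFNb in EAE B cells without single libraries, 4 in place of 5 for activation in EAE T cells without the block, and 2 in place of 3 for activation in EAE minus naive T cells without the block, with 2 to 3 there without the libraries of a number. The cause was not tested.

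Changes that turned sign were all uncalled and small. Without a filter, Egr1 with IFNb in EAE B cells came to -1e-04 and Nab1 with anti-Btla + IFNb in EAE T cells to -0.0061. The Nab1 activation difference of EAE B minus EAE T cells came to -0.0047 without the replicate block, -0.021 with DESeq2 size factors, -0.0178 without a filter and -0.0209 with DESeq2. Leaving out libraries gave these ranges of log2 change. For Egr1: IFNb in EAE B cells -0.1437 to 0.0718, in naive B -0.107 to 0.0271 and in naive T -0.0807 to 0.0392, activation in EAE minus naive B -0.1314 to 0.1122, anti-Btla beads against unstimulated in EAE B -0.1096 to 0.1965, and anti-Btla + IFNb in naive T -0.0762 to 0.0449. For Egr2: EAE against naive in unstimulated B -0.0227 to 0.2063 and anti-Btla + IFNb in naive T -0.0535 to 0.0529. For Egr3: IFNb in EAE B -0.1734 to 0.0603. For Nab1: IFNb in naive T -0.0066 to 0.1163, activation in EAE B minus EAE T -0.1684 to 0.2389, in EAE minus naive B -0.049 to 0.1663 and in EAE minus naive T -0.0162 to 0.1362, anti-Btla beads against unstimulated in EAE B -0.1587 to 0.0135, and anti-Btla + IFNb in EAE T -0.0423 to 0.0891, in naive B -0.1215 to 0.0389 and in naive T -0.0238 to 0.0394. For Nab2: EAE against naive in control Ig B -0.129 to 0.1623 and in unstimulated B -0.1267 to 0.1559, IFNb in naive B -0.2435 to 0.027, activation in EAE minus naive B -0.1277 to 0.1867, and anti-Btla + IFNb in naive B -0.197 to 0.0648 and in naive T -0.0212 to 0.0615.

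Libraries with the same replicate number deviated together only in part. Their median correlation was 0.23 in EAE B, 0.117 in naive B, 0.183 in EAE T and 0.121 in naive T cells. It was above 0.1 in 27, 19, 27 and 20 of 30 pairs. Libraries of unlike number had medians of -0.1545, -0.0582, -0.0988 and -0.0539 in the same order. Deviations were taken from the mean of each group, which ties both medians to each other. Libraries of the same number thus shared some variation. The labels do not say what a number stands for, so the numbers are not shown to pair the samples by animal. The block changed 3 calls of members, those of Egr3 under anti-Btla beads in naive B cells, Nab1 with activation in EAE T cells and Egr2 in the EAE minus naive T difference. Each group had 3 libraries, and the shallowest library held 6694406 reads.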
